A study of Mus musculus with 2 samples.

Results

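The integrated stress response was examined through 10 genes in NIH3T3 cells, an established mouse fibroblast line: the eIF2α kinase genes Eif2ak1, Eif2ak2, Eif2ak3 and Eif2ak4, the phosphatase subunit genes Ppp1r15a and Ppp1r15b, the transcription factor genes Atf4 and Ddit3, and the target genes Trib3 and Chac1. The members were chosen by name, with earlier results of these data known. All 10 were found among the 22838 genes of the deposited table. One library came from untreated cells and 1 from cells given 100 µM ALA for 16 h, with no replicate of either. ALA is spelled out nowhere in the labels. In work on heme, which the series title names, it stands for δ-aminolevulinic acid, a precursor from which cells make heme. No genetic change is given for either group. Expression is in FPKM, reads scaled to transcript length and library size, so levels of different genes can be compared.

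In the integrated stress response, kinases that sense different stresses phosphorylate the α subunit of the translation initiation factor eIF2. Most protein synthesis then slows, while a few mRNAs with upstream reading frames, Atf4 among them, are translated more. EIF2AK1 is HRI, the kinase that heme holds inactive and that balances globin synthesis with heme supply in red cell precursors. ATF4 turns on genes for amino acid supply and also Ddit3, which encodes CHOP, and PPP1R15A returns a phosphatase to eIF2α and closes the loop. The response acts mainly on protein and phosphorylation, which mRNA levels do not show.

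Of the 10 members, 2 passed 1.5-fold on the lower side with ALA, Ppp1r15a and Ddit3, and 0 passed it on the higher side. Atf4, Trib3, Chac1, Eif2ak1 and Ppp1r15b differed by no more than 1.05-fold between the libraries. Ratios are given as log2 of ALA FPKM + 1 over untreated FPKM + 1, which understates differences of low genes, and a fold printed for a gene is the plain ratio of FPKM values. Counts at 1.5-fold or 2-fold use the log2 ratio. Over the 10929 genes that averaged 1 FPKM or more in both libraries together, called measured here, 7.16% were at least 1.5-fold lower with ALA and 5.90% at least 1.5-fold higher. At 2-fold the member counts were 0 and 0, against 2.01% of measured genes lower and 1.49% higher. The median log2 ratio was -0.10 over the members and -0.019 over the measured genes. The member median ran from -0.18 to -0.026 when single members were left out and was -0.03 with equal totals, where that of all measured genes was 0.05. With both libraries scaled to the same FPKM total, the counts over all measured genes changed from 782 lower and 645 higher to 642 lower and 848 higher, and the member counts stayed at 2 and 0. With 1 library per group no p-value can be given. Approximate 95% counting intervals rest on an estimated depth of 21700000 reads untreated and 29400000 with ALA, and cover counting error only. In bulk RNA, fewer cells with a transcript and less transcript per cell cannot be told apart.

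**Figure D1:**
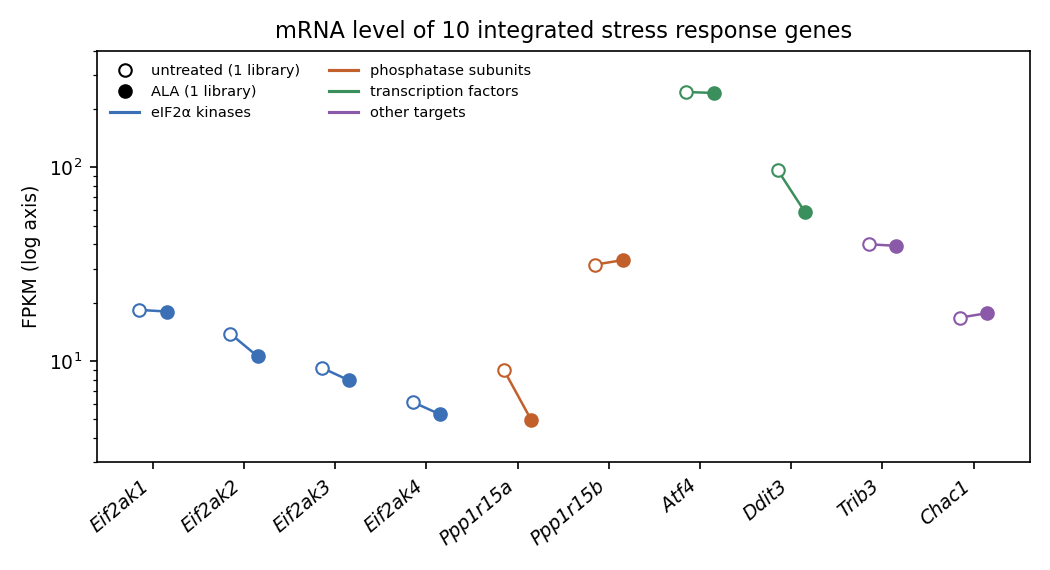
FPKM on a log axis for the 10 genes, with an open point for the untreated library and a filled point for the ALA library, coloured by role. The steep lines are those of Ppp1r15a, from 8.95 to 4.94 FPKM, and Ddit3, from 97.0 to 58.7 FPKM, while Atf4 stays at the top at 245 and 242 FPKM.

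Eif2ak1, the gene of the heme-regulated kinase, stood at 18.3 FPKM without and 18.0 FPKM with ALA. Its log2 ratio was -0.026 with a counting interval of -0.11 to 0.06, an interval that includes 0. In the GENCODE annotation of GRCm38, the assembly called mm10, the gene lies on the plus strand of chromosome 5 from 143817788 to 143904251. Exons of other genes of the table overlap 659 bases of Eif2ak1 exon sequence, and 12.7% of its sequence is shared with other genes. The deposited table places it in one locus with Aimp2, whose exons cover 487 of those bases. No strand setting is given in the sources used here. Aimp2 had 33.8 and 30.1 FPKM, so reads in the shared part cannot be assigned to either gene with certainty.

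The other 3 kinase genes had lower values in the ALA library, each by less than 1.5-fold. Eif2ak2 encodes PKR, which responds to double-stranded RNA, and had 13.8 FPKM untreated and 10.5 FPKM with ALA. Its log2 ratio of -0.36 (counting interval -0.46 to -0.26) was the lowest of the kinases, and 16.1% of measured genes had a lower ratio. Eif2ak3 encodes PERK, the kinase of the endoplasmic reticulum, and had 9.23 and 7.94 FPKM. Eif2ak4 encodes GCN2, which responds to uncharged tRNA, and had 6.13 and 5.29 FPKM. The log2 ratios of these last genes were close together, at -0.20 and -0.18. All 4 kinases kept the same order of level in both libraries, with Eif2ak1 highest and Eif2ak4 lowest. The 4 levels summed to 47.5 FPKM untreated and 41.8 FPKM with ALA, of which Eif2ak1 made up 38.6% and 43.1%.

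Ppp1r15a and Ppp1r15b encode the subunits that guide protein phosphatase 1 to eIF2α, the first stress-induced and also called GADD34, the second constitutive. Ppp1r15a had 8.95 FPKM untreated and 4.94 FPKM with ALA, and was 1.81-fold lower in the ALA library. The log2 ratio was -0.74 with a counting interval of -0.92 to -0.57, on about 453 and 339 reads. Of measured genes 4.26% had a lower ratio, and the middle 95% of genes with a mean of 5 to 20 FPKM lay between -0.83 and 0.77, a range that includes Ppp1r15a. With a pseudocount of 5 in place of 1 the log2 ratio was -0.49, short of 1.5-fold, as the added value weighs more on a low gene. Ppp1r15b had 31.4 and 33.2 FPKM, a log2 ratio of 0.07 with an interval of 0.02 to 0.13. Its mRNA was thus 3.51 times as abundant as that of Ppp1r15a in untreated cells and 6.71 times in ALA cells. Both levels together came to 40.4 FPKM untreated and 38.1 FPKM with ALA, most of it from Ppp1r15b. Of the Ppp1r15b sequence, 10.9% is shared with other genes. The promoter of Ppp1r15a, the member with the lowest ratio, is shown here as the 250 bases before the RefSeq start on GRCm38.p6 (chr7:45526269-45526518, minus strand), with capitals for the cAMP response element TGACGTCA.
Ppp1r15a: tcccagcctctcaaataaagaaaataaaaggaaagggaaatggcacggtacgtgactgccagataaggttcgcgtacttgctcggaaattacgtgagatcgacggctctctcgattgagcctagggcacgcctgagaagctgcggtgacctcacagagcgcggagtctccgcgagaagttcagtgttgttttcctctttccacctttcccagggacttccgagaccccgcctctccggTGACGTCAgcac
This element, a site type bound by ATF and CREB factors, stood 12 to 5 bases before the start. It was found in 1.55% of 32851 RefSeq promoters in the same window, and among the 9 members with an entry only in Ppp1r15a. Both strands were searched, and the element reads the same on each.

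Atf4 was the most abundant member in both libraries, with 245 FPKM untreated and 242 FPKM with ALA. Its log2 ratio was -0.017 (counting interval -0.06 to 0.02), on about 9167 and 12278 reads. In each library at least 97.4% of measured genes had a lower level than Atf4. Atf4 lies on chromosome 15 from 80255184 to 80257541 and shared 0 bases of exon with other genes of the table. ATF4 is known to be controlled largely at translation, and protein was not measured.

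Ddit3, which encodes the ATF4 partner and pro-apoptotic factor CHOP, had 97.0 FPKM in untreated cells and 58.7 FPKM in ALA cells, 1.65-fold lower with ALA. The log2 ratio was -0.71 with a counting interval of -0.81 to -0.62, and 4.79% of measured genes had a lower ratio. The middle 95% of genes with a mean of 20 to 100 FPKM lay between -0.66 and 0.56, and Ddit3 was below that range. At the deposited scaling its counting interval lay wholly past 1.5-fold, while that of Ppp1r15a, with an upper bound of -0.57, did not. With equal FPKM totals the log2 ratios of Ddit3 and Ppp1r15a were -0.64 and -0.68, nearer that line, and no interval was computed. Ddit3 lies on chromosome 10 from 127290774 to 127296288 and overlaps exons of Mars over 68 bases. Mars had 22.6 and 22.7 FPKM, an even level across the libraries. The level of Atf4 was 2.53 times that of Ddit3 in the untreated library and 4.12 times in the ALA library. The promoter of Ddit3, the other member below the line, is shown for comparison with that of Ppp1r15a (chr10:127290543-127290792, plus strand, GRCm38.p6).
Ddit3: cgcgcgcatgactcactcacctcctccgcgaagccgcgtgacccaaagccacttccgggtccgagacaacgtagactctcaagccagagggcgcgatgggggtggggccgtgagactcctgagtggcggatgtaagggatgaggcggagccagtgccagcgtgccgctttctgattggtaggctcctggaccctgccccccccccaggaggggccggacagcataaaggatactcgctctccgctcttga
Besides the cAMP response element, both strands were searched for TGATGNAA, described with Chac1, and for the endoplasmic reticulum stress element, which is CCAAT, any 9 bases and CCACG, held by 0.113% of all promoters. No exact match to any of these was found in the Ddit3 window, so no base is in capitals. On the opposite strand cgtgccgctttctgattgg reads as CCAAT, 9 bases and GCACG, close to the last element but not an exact match. Only exact matches were counted, and a site outside the window would not be seen.

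Trib3 and Chac1 are standard readouts of ATF4 and CHOP activity. Trib3, a pseudokinase gene that feeds back on ATF4 and CHOP, was at 40.04 FPKM in the untreated culture and 39.3 FPKM in the treated one. The log2 ratio was -0.026 with an interval of -0.11 to 0.06. Chac1, which encodes an enzyme that breaks down glutathione, had 16.7 and 17.7 FPKM, a log2 ratio of 0.07 with an interval of -0.07 to 0.22. Lower ratios than theirs were found in 49.0% and 60.9% of measured genes, so both lay in the middle of the distribution. Both genes lie on chromosome 2, Chac1 from 119351229 to 119354381 and Trib3 from 152337422 to 152344032, and neither shared exon bases with another gene of the table. The Chac1 promoter is shown because it was the only member promoter with the core of the C/EBP-ATF response element (CARE), TGATGNAA, the site at which ATF4 acts with C/EBP factors (chr2:119350992-119351241, plus strand, GRCm38.p6). Capitals mark the match, which is on the opposite strand, 193 to 186 bases before the start.
Chac1: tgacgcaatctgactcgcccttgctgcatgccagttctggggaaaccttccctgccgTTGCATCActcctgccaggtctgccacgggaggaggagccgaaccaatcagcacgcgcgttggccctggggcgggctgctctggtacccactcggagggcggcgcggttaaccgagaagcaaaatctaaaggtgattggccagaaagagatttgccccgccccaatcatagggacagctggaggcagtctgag
CARE core matches were present in 3.45% of all promoters in this window.

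**Figure D2:**
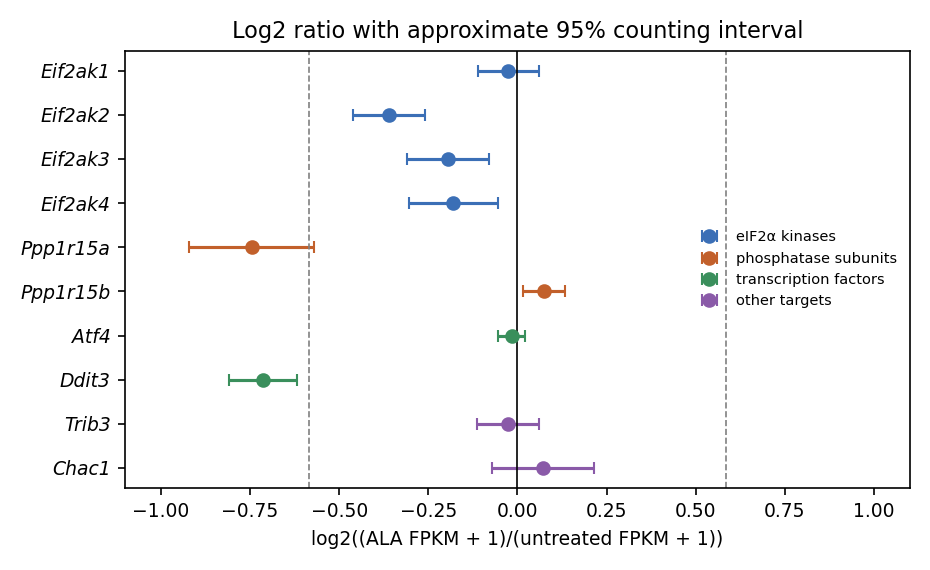
Log2 ratio of ALA to untreated for each gene with its approximate 95% counting interval as a bar, coloured by role; dashed lines mark 1.5-fold. Ddit3 at -0.71 and Ppp1r15a at -0.74 stand left of the line, and the other 8 genes lie between -0.36 and 0.07.

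The order of levels from Atf4 through Ddit3, Trib3, Ppp1r15b, Eif2ak1, Chac1 and Eif2ak2 down to Eif2ak3 and Eif2ak4 was the same in both libraries. Ppp1r15a stood between Eif2ak3 and Eif2ak4 in untreated cells and last with ALA. Eif2ak1 and Chac1 were close neighbours, at 18.3 and 16.7 FPKM untreated and 18.0 and 17.7 FPKM with ALA, and no replicate spread exists by which to separate them. The signs of 3 members, Eif2ak1, Atf4 and Trib3, turned to above 0 with equal FPKM totals, where their log2 ratios were 0.05, 0.06 and 0.05.

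**Figure D3:**
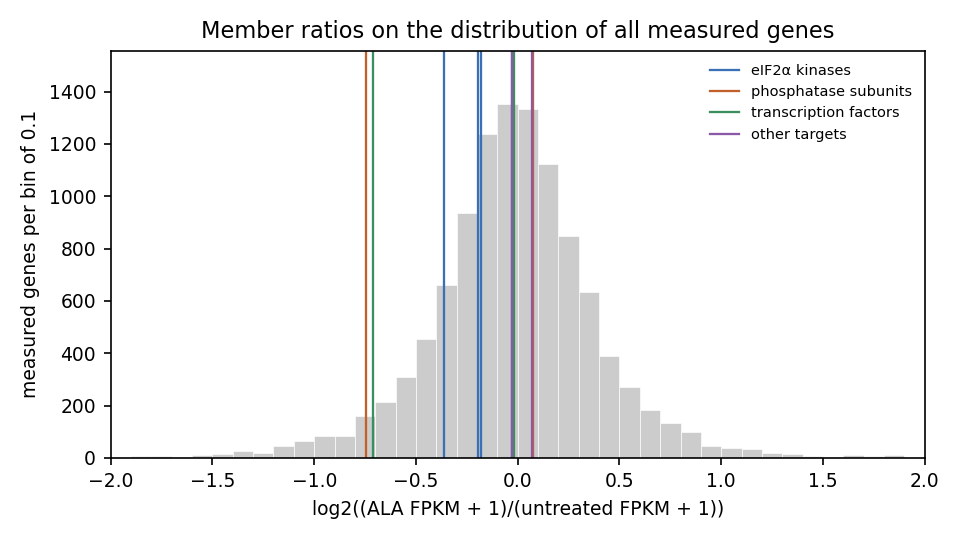
Histogram of the log2 ratio of all measured genes in bins of 0.1, with 1 vertical line per member coloured by role; ratios beyond 2 in either direction are not drawn. Most members stand in the body of the distribution, and Ppp1r15a and Ddit3 in its lower flank, where 4.26% and 4.79% of measured genes were lower still.

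The 5′ leaders of the members differed in a feature tied to translational control, the presence of AUG codons before the main start. In the RefSeq-matched GENCODE transcripts, Atf4, Ppp1r15a, Ppp1r15b and Eif2ak3 had 3 upstream AUGs each, Ddit3 had 2 and Eif2ak2 had 1. Eif2ak1, Eif2ak4, Trib3 and Chac1 had 0. Over 18951 coding genes of the table with an annotated leader, 51.6% had at least 1. Leader lengths ran from 91 bases in Eif2ak4 to 604 in Ppp1r15b, and that of Atf4 was 594. Genes with upstream AUGs were thus found both among the lower members and among those with even levels.

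The genes around the kinases and around eIF2 itself stayed within 1.5-fold, as most measured genes did. Over all measured genes 7.16% were at least 1.5-fold lower and 5.90% at least 1.5-fold higher. Of 9 genes for eIF2, its exchange factor eIF2B and its GTPase activator, 0 passed 1.5-fold in either direction. The regulatory eIF2B subunit Eif2b1 had 19.5 and 15.1 FPKM (log2 ratio -0.35), Eif5 78.2 and 66.0 FPKM (-0.24), and Eif2s1, the phosphorylated subunit itself, 44.4 and 41.4 FPKM (-0.10). The list median was -0.10. Of the Eif2s1 sequence, 11.4% is shared with other genes. Of 14 activators and inhibitors of the kinases 0 passed 1.5-fold, with a median of 0.03. Gcn1l1, which encodes the GCN2 activator GCN1, was at 0.30, the HSP90 cochaperone gene Cdc37 at -0.29, the PKR activator Prkra at -0.29, and Dnajc3, which encodes an inhibitor of PERK and PKR, at 0.21. Hsp90ab1, whose product is a chaperone of HRI, had 1301 and 1325 FPKM. Oma1, the mitochondrial protease that acts upstream of HRI, had 10.2 and 9.37 FPKM. The catalytic subunits Ppp1ca, Ppp1cb and Ppp1cc, which pair with the PPP1R15 proteins, were at 0.07, -0.19 and -0.10. Ppp1ca and Ppp1cc share 21.1% and 59.7% of their sequence with other genes.

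Of the ATF4 target genes for amino acid supply, in 3 lists, 0 passed 1.5-fold in either direction. The shares over all measured genes were 7.16% lower and 5.90% higher. All 12 tRNA synthetase genes had log2 ratios above 0, with a median of 0.20, while 5222 of 10929 measured genes were above 0. All gene lists here were chosen with earlier results of these data known, so such counts are not independent of the data. The values ran from 0.0047 for Mars, with a counting interval of -0.09 to 0.10, up to 0.45. Wars, for tryptophan, had 28.5 and 39.4 FPKM (log2 ratio 0.45), Iars, for isoleucine, 37.3 and 51.2 FPKM (0.45), Lars, for leucine, 50.4 and 62.6 FPKM (0.31) and Eprs, for glutamate and proline, 63.8 and 76.3 FPKM (0.25). Of 8 measured amino acid transporter genes 6 were above 0, with a median of 0.24, against the same 5222 of 10929 overall. Slc7a5, the large neutral amino acid transporter, had 39.96 and 59.4 FPKM (log2 ratio 0.56), and its partner chain Slc3a2 73.9 and 89.0 FPKM (0.27). Slc7a1, for cationic amino acids, was at 0.39 and Slc1a5, for glutamine, at 0.30. Of 12 measured enzyme genes 8 were above 0, with a median of 0.15, again against 5222 of 10929. The serine pathway genes Shmt2, Psph and Phgdh were at 0.56, 0.48 and 0.40, asparagine synthetase Asns at 0.16, and the proline pathway gene Pycr1 at -0.44. Psph, Phgdh and Iars share 24.3%, 68.6% and 12.2% of their sequence with other genes. These lists are textbook targets that also answer to other signals, and all of their members stayed within 1.5-fold at the deposited scaling. With equal totals or equal upper quartiles 1 enzyme gene and 1 transporter gene passed it on the higher side. At these scalings 7.76% and 6.59% of measured genes were at least 1.5-fold higher.

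Among the remaining targets of ATF4 and CHOP, 4 of 13 measured genes were at least 1.5-fold lower and 1 higher, against 7.16% and 5.90% of all measured genes. The list median was -0.29, and it was -0.14 with no filter and -0.19 with a pseudocount of 5. Ero1l, an oxidase of the endoplasmic reticulum, was at 225 FPKM in untreated and 83.2 FPKM in treated cells (log2 ratio -1.42). Ddit4, an inhibitor of mTORC1, had 109 and 54.4 FPKM (-0.99), the pro-apoptotic gene Bcl2l11 19.1 and 11.6 FPKM (-0.68), and Stc2, a secreted glycoprotein gene, 3.31 and 1.73 FPKM (-0.66). Bbc3, which encodes the p53 target PUMA, was the higher gene, with 8.54 and 16.5 FPKM (0.87). Ero1l and Ddit4 are also known as genes induced by low oxygen. With a pseudocount of 5, 2 genes of this list were at least 1.5-fold lower, against 2.74% of measured genes. The hormone genes Fgf21 and Adm2 were listed at 0 in both libraries, and Gdf15 at 0 untreated and 0.078 FPKM with ALA.

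Of 8 measured bZIP genes, whose products pair with ATF4 and CHOP or share their sites, 7 were below 0, with a median of -0.21, against 5707 of 10929 over all measured genes. With equal totals the count was 6. Atf3, a stress-induced repressor gene downstream of ATF4, had 2.29 FPKM untreated and 0.284 FPKM with ALA, or about 98 and 17 reads. Its plain fold was 8.05 lower and its log2 ratio -1.36, and no other gene of this list passed 1.5-fold. Atf3 reached the mean of 1 FPKM only through the untreated library, so its place among the measured genes is tied to the difference itself. With a pseudocount of 5, or a mean of at least 5 FPKM, 0 genes of this list passed 1.5-fold. At these settings 2.74% and 5.19% of all genes kept were at least 1.5-fold lower. Cebpd was at -0.42, Cebpb at -0.22 and Nfe2l2, the gene of NRF2, at -0.22. Jdp2, which encodes another repressor of the family, was higher at 0.41. Cebpa was listed at 0 in both libraries.

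CARE cores from promoters of some genes of the target lists are shown on GRCm38.p6, so that their letters can be set beside the values. Sites of the other genes of these lists with a match are left out. Each line runs 5′ to 3′ on the strand of the match, with the 8-base core in capitals and up to 10 bases on each side.
Atf3 (chr1:191183426-191183453, plus strand): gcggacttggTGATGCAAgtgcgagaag
Jdp2 (chr12:85599373-85599400, plus strand): tagccggggcTGATGCAAcccgtcccgc
Asns (chr6:7693215-7693242, minus strand): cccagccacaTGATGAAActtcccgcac
Pycr1 (chr11:120643834-120643861, minus strand): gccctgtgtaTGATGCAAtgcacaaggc
Slc7a11 (chr3:50443662-50443689, minus strand): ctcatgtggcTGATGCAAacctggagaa
Slc7a11 (chr3:50443643-50443670, plus strand): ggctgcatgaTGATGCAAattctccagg
Nupr1 (chr7:126625563-126625590, plus strand): aagccctgtcTGATGCAAtctggccctt
The core was found in the promoters of 3 of 8 tRNA synthetase genes with an entry, 3 of 11 enzyme genes, 1 of 6 transporter genes, 2 of 8 bZIP genes and 4 of 14 other target genes. Over all 32851 promoters the share was 3.45%, counted per promoter and not per gene. All but Asns and Gars carried the form TGATGCAA. Of the 13 measured genes with a match, Chac1 and Atf3 included, 8 were above 0 and 5 below, and their median was 0.15. Over all measured genes 5222 were above and 5707 below. The cystine transporter gene Slc7a11 had 11.2 and 13.3 FPKM (log2 ratio 0.22) and the stress-induced gene Nupr1 104 and 80.9 FPKM (-0.35). Atf3, measured only through the untreated library, was at -1.36 and Jdp2 at 0.41, and both carry the form TGATGCAA. A link between the core and the ratios was not tested.

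**Figure D4:**
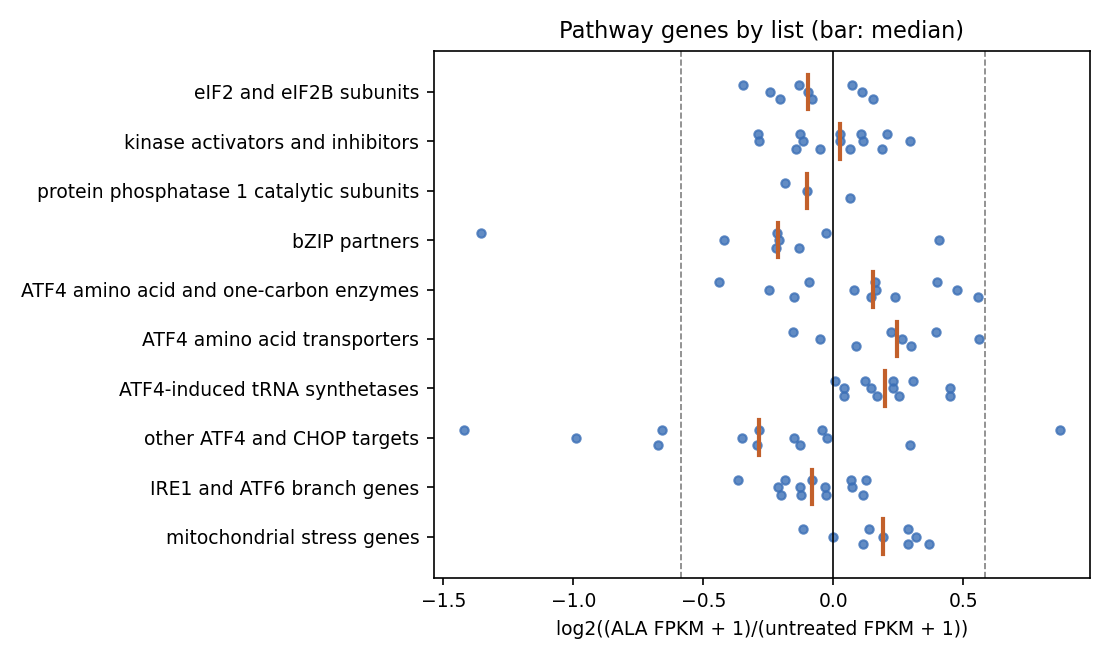
Log2 ratio of every measured gene in 10 pathway lists, 1 point per gene, with the list median as a bar and dashed lines at 1.5-fold. The tRNA synthetase points lie between 0.0047 and 0.45, while Ero1l at -1.42 and Atf3 at -1.36 are the farthest points to the left.

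Genes of neighbouring stress pathways all stayed within 1.5-fold, as most measured genes did. Of all measured genes, 7.16% were at least 1.5-fold lower and 5.90% at least 1.5-fold higher. The IRE1 and ATF6 branches of the endoplasmic reticulum response had 13 measured genes, 0 of them past 1.5-fold, and a median of -0.08. Xbp1, whose mRNA is spliced by IRE1, had 51.5 and 39.7 FPKM (log2 ratio -0.37), the chaperone gene Hspa5 274 and 251 FPKM (-0.13), and Dnajb9 and Edem1 were at -0.21 and -0.20. Of 9 mitochondrial stress genes 7 were above 0, against 5222 of 10929 measured genes, with a median of 0.19 and 0 past 1.5-fold. Opa1, for inner membrane fusion, was at 0.37, the protease gene Clpp at 0.29, and the chaperonin genes Hspe1 and Hspd1 at 0.32 and 0.29, with 51.0% and 49.1% of their sequence shared with other genes.

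The libraries carried the markers of the labelled cell type. All 9 fibroblast markers were measured, and their levels summed to 12743 FPKM untreated and 11194 FPKM with ALA. S100a4 alone had 4976 and 4717 FPKM, and 57.2% of its sequence is shared with other genes. Of the 9 markers 8 were below 0, with a median log2 ratio of -0.26, against 5707 of 10929 measured genes. Pdgfra and Thy1 were more than 1.5-fold lower with ALA, at log2 ratios of -0.64 and -0.62, against 7.16% of all measured genes. No erythroid marker was measured: their sum was 0.203 and 0.532 FPKM, and Alas2, Gata1 and Klf1 were listed at 0 in both libraries. The sum includes the globin mRNAs, whose translation HRI controls in red cell precursors. Of 6 macrophage markers 2 were measured, Cd14 and Lyz2, with 13.1 and 4.69 FPKM and with 15.2 and 9.59 FPKM, and the 6 summed to 29.0 and 16.5 FPKM. Of the Lyz2 sequence, 22.3% is shared with other genes. The other 4 macrophage markers had higher values in the ALA library, which was the deeper one by the estimate. Emr1 and Csf1r were near the floor, at 0 untreated and at 0.011 and 0.047 FPKM with ALA. Cd68 had 0.237 and 1.40 FPKM, or about 6 and 51 reads. Ptprc, which marks all white blood cells, had 0.367 and 0.754 FPKM. The part of these marker differences in the values of Ddit3, Ppp1r15a and Atf3 was not tested. Of 5 epithelial markers Cdh1 was measured at 1.23 and 0.944 FPKM, and all 4 adipocyte markers were listed at 0.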

How the data were processed

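Messenger RNA of 2 NIH3T3 cultures was sequenced as single-end reads of 41 bases, per the labels' protocols. FastQC 0.11.5, TopHat2 2.1.1, Cufflinks 2.2.1 and the build mm10 are named in the submitters' processing notes, without options, annotation or strand setting. The deposited values are FPKM per gene, made by the authors and given per the file headers. Lower and upper bounds were equal for 100% of genes and gave no error. All 10 members had status OK.

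From these values log2 ratios were computed in Python 3.11.15 with a pseudocount of 1, over genes averaging 1 FPKM or more. Depth was estimated from the FPKM that 1 read gives in low single-transcript genes longer than 1500 bases, and the estimator was tested on simulated data. Sequence shared in 41-base stretches, exon overlap and positions came from GENCODE vM21, where 97.8% of genes matched. Promoters came from the RefSeq table of GRCm38.p6. Members and lists were chosen with earlier results of these data known. Named were all members and up to 4 genes of each list with the largest ratios, plus genes a role called for. Alternatives changed the pseudocount, filter, scaling, threshold or gene set.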

Additional observations from a re-analysis of the deposited data

How the results depend on the processing

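No paired analysis was possible because each group has 1 library. For the same reason no library could be left out. The count of members at least 1.5-fold lower was 2, and 0 were higher, under a pseudocount of 0.1, a mean of at least 5 FPKM, no filter, all 3 scalings and genes with under 10% shared or overlapping sequence. With a pseudocount of 5 the lower count was 1, against 2.74% of measured genes, since Ppp1r15a then missed the line by the construction of the scale. At 2-fold the lower count was 0, against 2.01%. The member median of -0.10 ran from -0.18 to -0.026 when single members were left out and was -0.03 with equal totals and -0.19 over the 8 genes with little shared sequence. Over all measured genes 349 were higher and 447 lower at a mean of at least 5 FPKM, and 194 and 299 with a pseudocount of 5. Of 78 other member values, 3 fell outside the counting interval of the main value. Atf3 rests on about 17 reads with ALA, and genes listed at or near 0 on fewer.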
